A study of Mus musculus with 6 samples.

Results

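The genes described here encode enzymes that make drugs, hormones and reactive aldehydes easier to clear: glutathione transferases, glucuronosyltransferases, sulfotransferases, aldehyde and alcohol dehydrogenases, aldo-keto reductases, flavin monooxygenases and carboxylesterases. Members were chosen by name alone, as every gene whose single symbol in the array's annotation begins with Gst (a, k, m, o, p, t or z), Mgst, Ugt, Sult, Aldh, Adh, Akr, Fmo or Ces and a number where the family uses one. This gave 58 genes on 80 probe sets, of 8251 genes on the array. The data are 6 one-colour arrays hybridised with total RNA of mouse liver, from 3 genotypes at circadian times CT02 and CT14, with 1 array per genotype and time. Circadian times run from the onset of subjective day, so that CT02 is 2 h and CT14 is 14 h after it. All mice were males 8 to 10 weeks old. The genotypes were wild type on a C57BL/6 background, Clock mutant, and Cry-deficient, of which the CT02 array was described as a knockout of Cry1 and Cry2 together and the CT14 array only as Cry deficient. Not given in the sources used here are the Clock allele, the background of the mutants and any pooling of mice.

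Liver clears lipid-soluble compounds in steps. Oxidases, dehydrogenases and esterases first expose or create a reactive group, and transferases then attach glutathione, glucuronic acid or sulfate so that the product can be carried into bile or urine. Aldehyde dehydrogenases, alcohol dehydrogenases and aldo-keto reductases handle alcohols and aldehydes, among them ethanol, retinoids and products of lipid peroxidation. The circadian clock is a feedback loop in which the proteins of Clock and Arntl drive Per, Cry and output genes and the cryptochromes repress that drive. Clock output factors of the PAR bZIP family (Dbp, Tef and Hlf) are known to bear on detoxification genes in liver.

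Levels are in scaled units, that is, deposited intensities after each array was brought to a common scale, and values under a floor of 606 units were not read as levels. Where a pair of values is given for a genotype, CT02 comes first and CT14 second. Of the 58 members, 45 had a mean over the arrays at or above the floor and were kept, each represented by its brightest probe set. The kept members were 16 of 18 glutathione transferases, 2 of 3 glucuronosyltransferases, 6 of 9 sulfotransferases, 6 of 10 aldehyde dehydrogenases, all 4 alcohol dehydrogenases, 4 of 7 aldo-keto reductases, both flavin monooxygenases and all 5 carboxylesterases. Of the 45, 43 were above the floor on all 6 arrays, and Sult1b1 and Sult4a1 were not. The 13 members not kept were Gsta1, Mgst2, Ugt8a, Sult1c1, Sult2a2, Sult3a1, Aldh18a1, Aldh1a2, Aldh1a3, Aldh3a1, Akr1b8, Akr1c21 and Akr1e1. Of these, 8 were at or under the floor on every array and 5 passed it on at least 1. A difference of at least 2-fold between a pair of arrays is called a 2-fold difference below. With 1 array per group no difference has a replicate check, so sizes are given with no test, and precision is limited by the small number of arrays. The RNA is from whole tissue, where fewer cells of a type and less RNA per cell cannot be told apart.

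Some technical readings set single arrays apart. Mean deposited intensity was 1637 on the Clock mutant CT02 array and between 2182 and 2486 on the other 5. Control probes at the 3' end of Actb read 2.68 times those at the 5' end on that array, which is a sign of shorter RNA or labelling, and 1.70 times on the CT02 array of the Cry-deficient mice, against 0.84 to 1.15 times elsewhere. The same measure for Gapdh was 2.37 on the latter array and between 0.56 and 0.72 elsewhere. Its lowest value, 0.56, was on the Clock mutant CT02 array, so Actb and Gapdh disagreed there. Hepatocyte markers were bright, with 7 of 8 measured kept and a summed level from 84202 to 114102, while 0 of 3 bile duct and 0 of 3 T cell markers were. The targeted genes do not check the genotypes. Cry1 read 1833 and 2723 in wild-type liver but 3845 and 4718 in liver labelled Cry-deficient, and Cry2 read 1215 and 2256 against 1185 and 1344. The positions of these probes in the deleted genes are unknown here, and the arrays and livers are called Cry-labelled below. Clock probes read 2430 and 1552 in wild-type liver, and 1640 and 2069 in Clock mutant liver, which says nothing of a mutant allele.

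The members were bright, and their spread over the arrays was close to that of all genes. Of the 45, 23 lay in the brightest 10% of all genes kept. From the lowest to the highest array the median member spanned 1.63-fold, against 1.77-fold over all 4844 genes kept. The widest, Gstm6, spanned 12.9-fold, with a lowest reading (672) near the floor. In 14 members the highest array was at least 2-fold above the lowest, 31.1% of the members beside 36.4% of all genes kept. In at least 1 of the 7 comparisons made here 11 members were 2-fold apart, 24.4% of them beside 27.3% of all genes kept, a share near that of all genes. The differences lay in a few families: 7 of 16 glutathione transferases, 3 of 6 sulfotransferases and 1 of 4 alcohol dehydrogenases were 2-fold apart somewhere, and 0 of the 19 kept members of the other 5 families were. This split ran with brightness. Of those 19 members 16 lay in the brightest 10%, against 5 of the 16 glutathione transferases, 2 of the 4 alcohol dehydrogenases and 0 of the 6 sulfotransferases. Among the brightest 10% of genes, 0 of 23 members and 3.71% of all were 2-fold apart in some comparison, and among the rest 11 of 22 members (50%) and 29.9% of all, with no test of the difference. The highest reading of an array lay between 28409 and 35930, and some bright members came close to it. Adh5, for example, read 28489 on the wild-type CT14 array, where the highest reading was 30135. Whether a ceiling on bright signals narrowed the ratios of such members was not tested. The heat map shows every kept member.

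**Figure D1:**
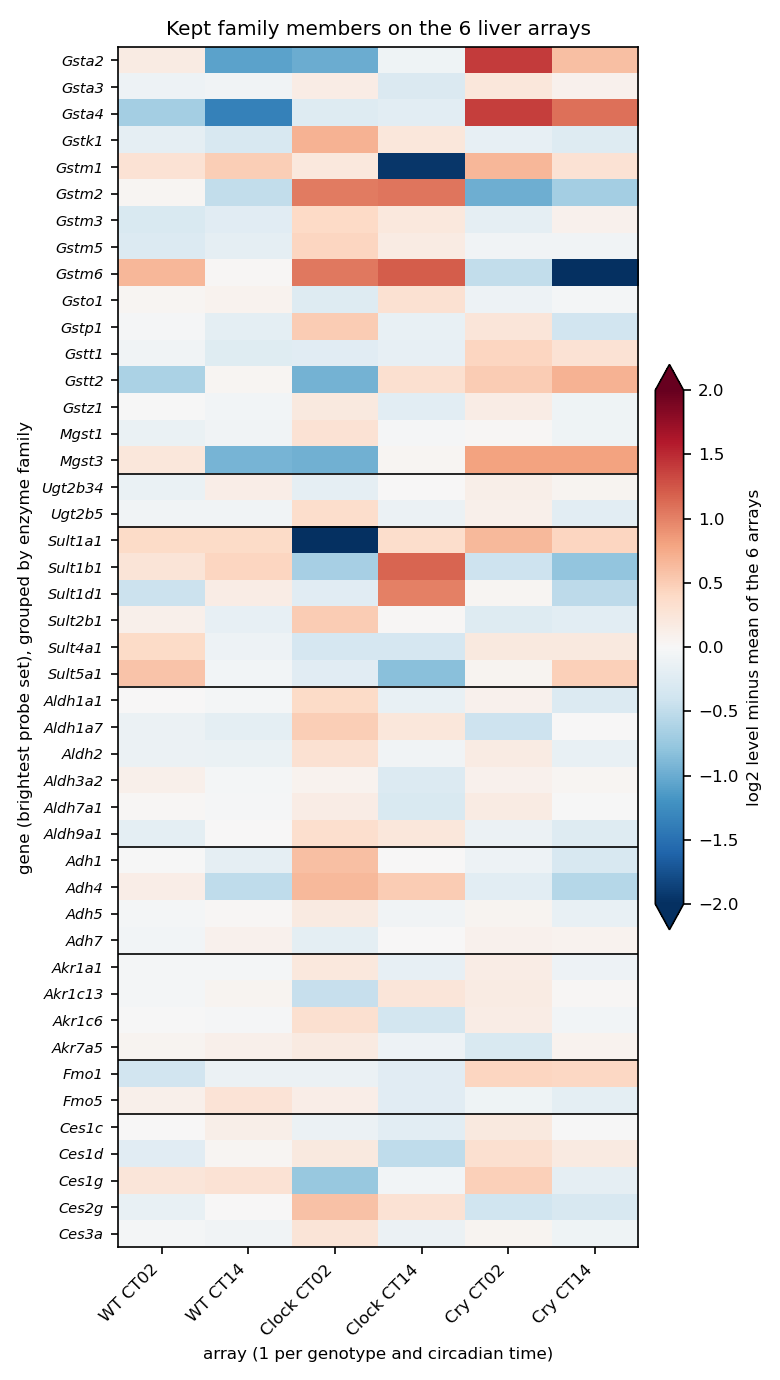
Each row is a kept member (brightest probe set, 45 in all) and each column 1 array, with lines between enzyme families, and colour gives the log2 level minus the mean of the 6 arrays, with values under the floor set to it. Strong colours lie in the glutathione transferase and sulfotransferase blocks, such as Gsta4 and Gstm6 on the Cry-labelled arrays and Sult1a1 on the Clock mutant CT02 array, while the aldehyde dehydrogenase and aldo-keto reductase rows stay pale.

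The alpha-class glutathione transferases, cytosolic enzymes that conjugate glutathione to lipid peroxidation products among other substrates, gave the largest higher levels on the Cry-labelled arrays. Gsta4, whose enzyme prefers the lipid aldehyde 4-hydroxynonenal, read 2098 and 1318 in wild-type liver, 2816 and 2896 in Clock mutant liver and 8780 and 7156 in Cry-labelled liver. Both Cry-labelled arrays were above the other 4, and both Clock mutant arrays were above both wild-type arrays. Gsta4 was 4.18-fold higher than wild type on the Cry-labelled CT02 array and 5.43-fold higher on the CT14 array. The Actb and Gapdh control ratios were 1.70 and 2.37 on the Cry-labelled CT02 array and 0.86 and 0.70 on the CT14 array. Their part in the result was not tested. In the Clock mutant Gsta4 was 1.34-fold higher at CT02 and 2.20-fold higher at CT14. Within a genotype its time difference was smaller, at most 1.59-fold, in wild type.

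Gsta2 differed between genotypes and between times, on 1 array for each. It read 7634 and 3267 in wild-type liver, 3439 and 6418 in Clock mutant liver and 17960 and 10438 in Cry-labelled liver. CT02 was the higher time in wild type and on the Cry-labelled arrays, and CT14 in the Clock mutant. The log2 ratio of CT14 over CT02 was -1.22 in wild type, 0.90 in the Clock mutant and -0.78 on the Cry-labelled arrays. Against wild type it was 2.35-fold and 3.19-fold higher on the Cry-labelled arrays, and in Clock mutant liver 2.22-fold lower at CT02 and 1.96-fold higher at CT14. The Clock mutant CT02 array was the dimmest, with an Actb control ratio of 2.68 and a Gapdh ratio of 0.56. The part of these readings in the Gsta2 differences was not tested. Gsta1 and Gsta2 are near-identical copies, so the Gsta2 probe set may read both, and Gsta1's own was under the floor on all 6 arrays. Gsta3, the remaining alpha-class gene kept, stayed between 16026 and 22725 on all 6 arrays. The high Cry-labelled level was therefore seen for Gsta2 and Gsta4 and was at most 1.25-fold for Gsta3. Gsta4 and Gsta2 were the members at least 2-fold higher on the Cry-labelled arrays at both times, 2 of 45 (4.44%) where 0.475% of all genes kept were.

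The mu-class genes lie next to each other, in the order Gstm5, Gstm7, Gstm6, Gstm3, Gstm2, Gstm1 and Gstm4 in RefSeq, and 5 of these 7 were on the array under a single symbol. They are alike in sequence, so a probe set can bind transcripts of more than 1 of them, and their values are uncertain for that reason. Gstm6 read 5906 and 3809 in wild-type liver, 7791 and 8654 in Clock mutant liver and 2647 and 672 in Cry-labelled liver. The genotypes did not overlap, with the Clock mutant highest and the Cry-labelled arrays lowest at each time. Gstm6 was 2.23-fold and 5.66-fold lower than wild type on the Cry-labelled arrays at CT02 and CT14, and 1.32-fold and 2.27-fold higher in the Clock mutant. It was the 1 member of 45 (2.22%) that was 2-fold lower at both times on the Cry-labelled arrays, where 0.475% of all genes kept were. Its other probe set gave the same order, with 2575 and 1419, 3001 and 3832, and 1403 and 451 in the 3 genotypes. On that probe set the Cry-labelled arrays were 1.84-fold lower at CT02 and at least 2.34-fold lower at CT14.

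Gstm2 shared that order of genotypes at each time. It read 3750 and 2576 in wild-type liver, 7446 and 7659 in Clock mutant liver and 1843 and 2270 in Cry-labelled liver. Against wild type it was 1.99-fold and 2.97-fold higher in Clock mutant liver, and 2.03-fold and 1.13-fold lower on the Cry-labelled arrays. Its dimmer probe set, of a design with relaxed rules, read 2353 and 1638, 2787 and 1837, and 1466 and 1316. That probe set went the same way but was 1.18-fold and 1.12-fold higher in the Clock mutant. Taken as the mean of its probe sets, the Gstm2 difference at CT14 was 0.87 on the log2 scale, under 2-fold.

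Gstm1 moved the other way in the Clock mutant, on 1 array. Its brightest probe set, of a kind (marked f) designed against several related transcripts, read 9891 and 11371 in wild-type liver, 9374 and 2116 in Clock mutant liver and 12854 and 9907 in Cry-labelled liver. The Clock mutant CT14 array was low and the other 5 lay between 9374 and 12854. It was 5.37-fold below wild type at CT14 and 4.43-fold below the Clock mutant at CT02. Its other probe set read 4009 and 3175 in Clock mutant liver against 3240 and 3218 in wild-type liver, with a log2 ratio of -0.02 at CT14. The Gstm1 difference was thus on 1 of 2 probe sets. Gstm3 and Gstm5, also on family probe sets, were both higher in the Clock mutant than in wild type, by 1.63-fold and 1.62-fold at CT02 and by 1.34-fold and 1.26-fold at CT14. The 4 probe sets of Gstm5 went different ways. One of them was 3.55-fold lower than wild type on the Cry-labelled CT02 array, another was at least 1.47-fold higher there, and the last was under the floor on every array.

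**Figure D2:**
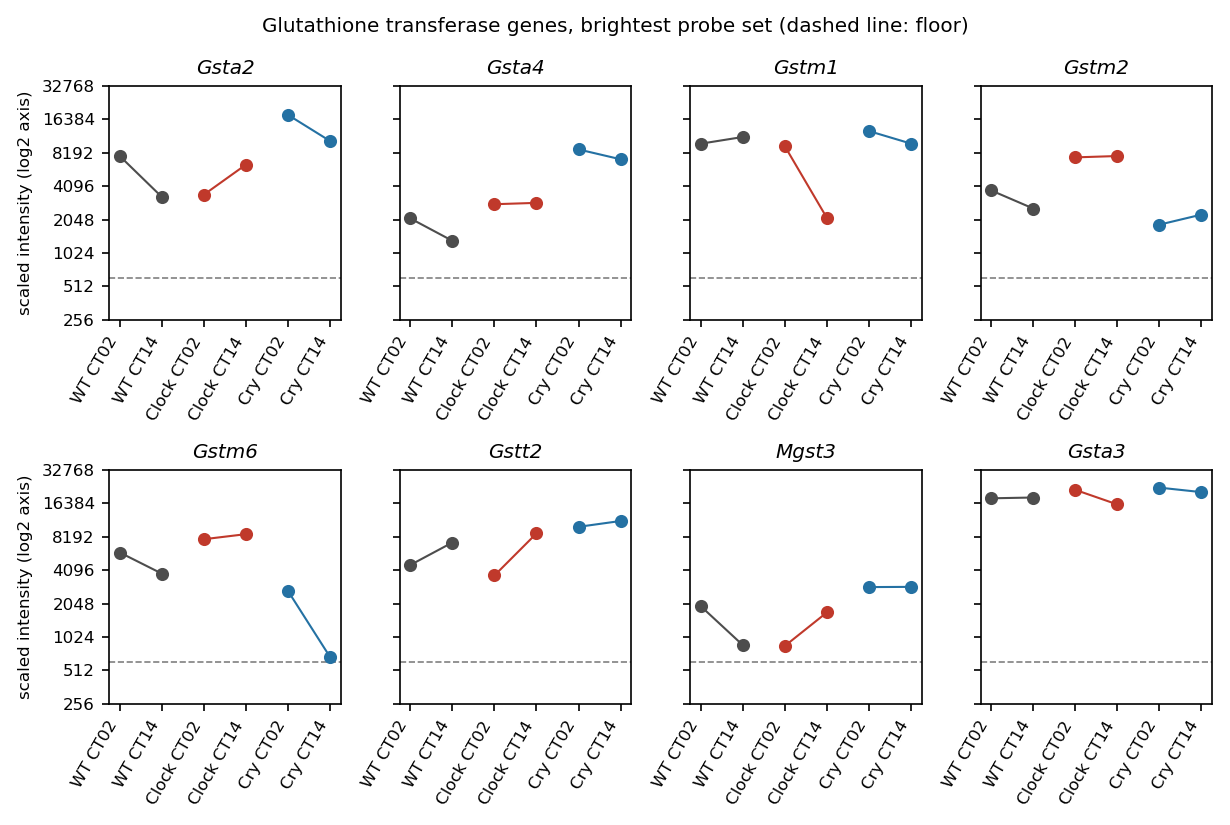
Scaled intensity (log2 axis) of 8 glutathione transferase genes on each of the 6 arrays, 1 point per array, with a line joining the times of a genotype (wild type grey, Clock mutant red, Cry-labelled blue) and a dashed line at the floor of 606. Gsta2, Gsta4 and Mgst3 are highest on the Cry-labelled arrays, Gstm2 and Gstm6 are highest in the Clock mutant and lowest on the Cry-labelled arrays, and Gsta3 stays between 16026 and 22725.

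**Figure D3:**
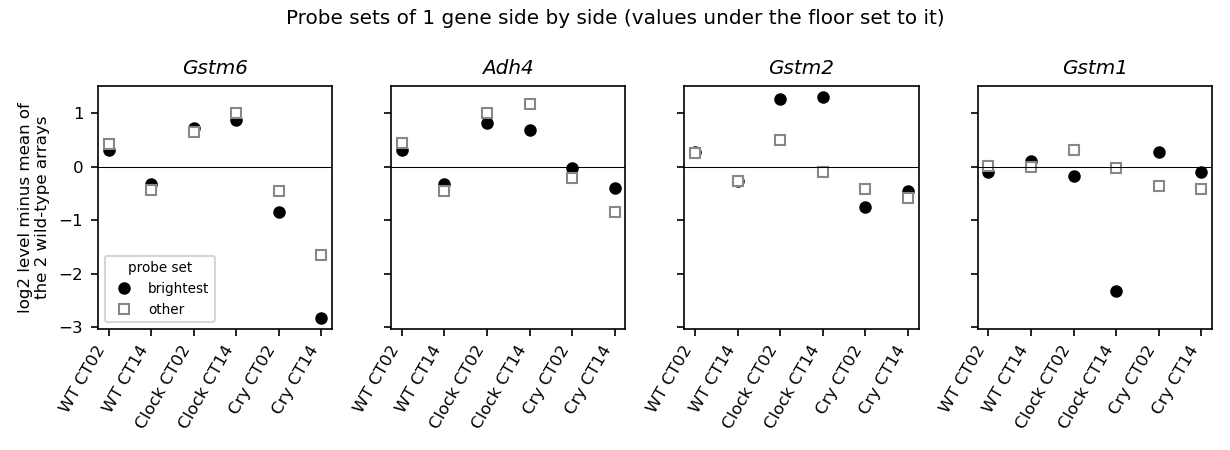
Log2 level of each probe set of Gstm6, Adh4, Gstm2 and Gstm1 minus its own mean over the wild-type arrays, with filled circles for the brightest probe set and open squares for the other, and values under the floor set to it. The probe sets of Gstm6 and of Adh4 run alike, that of Gstm2 differs in the Clock mutant, and that of Gstm1 differs on the Clock mutant CT14 array, where the log2 ratios over wild type were -2.43 and -0.02.

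Gstt2, of the theta class, and the microsomal Mgst3 also differed between arrays. Gstt2 read 4560 and 7272 in wild-type liver, 3668 and 8792 in Clock mutant liver and 10072 and 11371 in Cry-labelled liver. Both Cry-labelled arrays were above all others. CT14 was the higher time in every genotype, by 1.59-fold in wild type, 2.40-fold in the Clock mutant and 1.13-fold on the Cry-labelled arrays. Its neighbour Gstt1 was 1.41-fold and 1.45-fold higher than wild type on the Cry-labelled arrays at CT02 and CT14. Mgst3, a membrane enzyme that also acts on lipid hydroperoxides, read 1940 and 864 in wild-type liver, 850 and 1705 in Clock mutant liver and 2883 and 2896 in Cry-labelled liver. Like Gsta2 it was high at CT02 in wild type and at CT14 in the Clock mutant, with a log2 ratio of -1.17 in the former and a 2.01-fold higher CT14 reading in the latter. It was 3.35-fold higher than wild type on the Cry-labelled CT14 array and 1.49-fold at CT02. Its second probe set was under the floor on every array, and the lower readings of the first were near the floor.

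The remaining glutathione transferases differed less. Gstk1, of the kappa class, was 1.82-fold and 1.46-fold higher in the Clock mutant than in wild type at CT02 and CT14. Gstp1, the pi-class gene known to be higher in male liver, ranged from 8186 to 15167 and was the lower at CT14 in all 3 genotypes, by 1.13-fold, 1.57-fold and 1.54-fold in wild type, Clock mutant and Cry-labelled arrays. Gsto1, Gstz1 and Mgst1 spanned at most 1.48-fold over the 6 arrays. Mgst2 was not kept. It read 1690 on the Cry-labelled CT02 array and 787 on the Clock mutant CT02 array and was under the floor on the other 4.

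The sulfotransferases, cytosolic enzymes that transfer sulfate to phenols, steroids and other hydroxyl compounds, held 3 genes that were 2-fold higher at CT14 than at CT02 in the Clock mutant, of 6 kept, where 4.31% of all genes kept were. The 3 differed in how the Clock mutant arrays stood to wild type. Sult1a1 was low at CT02 and Sult1d1 was high at CT14. Sult1b1 was 1.9-fold lower at CT02, on a reading (659) near the floor, and 1.66-fold higher at CT14. Sult1a1, the main phenol sulfotransferase, read 5383 and 5381 in wild-type liver, 899 and 5298 in Clock mutant liver and 6452 and 5579 in Cry-labelled liver. A single array was low. Sult1a1 was 5.99-fold below wild type on the Clock mutant CT02 array and 1.02-fold below it at CT14. The Clock mutant CT02 array was also the dimmest, with the highest Actb control ratio (2.68) and the lowest Gapdh ratio (0.56). The part of these readings in the result was not tested. Of the pericentral hepatocyte markers 4 of 6 measured were kept, and their summed level was 39570 and 40081 in Clock mutant liver, 51162 and 50071 in wild-type liver and 60795 and 46247 in Cry-labelled liver, with Glul 3.24-fold, Cyp2e1 2.45-fold and Cyp1a2 1.11-fold below wild type and Oat 1.13-fold above it on the Clock mutant CT02 array, and Lgr5 under the floor on all 6. Their part in the low Sult1a1 reading was not tested either. The second Sult1a1 probe set was under the floor on all 6 arrays. Sult1b1 read 1253 and 1409 in wild-type liver, 659 and 2339 in Clock mutant liver and 783 and 292 in Cry-labelled liver. The Clock mutant CT14 array was the highest of the 6 and the Cry-labelled CT14 array, under the floor, the lowest. Sult1b1 was 3.55-fold higher at CT14 than at CT02 in the Clock mutant and at least 2.32-fold lower than wild type on the Cry-labelled CT14 array. Sult1d1, which lies beside Sult1b1 in RefSeq's gene order, read 1727 and 2567 in wild-type liver, 1981 and 4679 in Clock mutant liver and 2401 and 1614 in Cry-labelled liver. It too was highest on the Clock mutant CT14 array, 2.36-fold above the CT02 array of that genotype.

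The other 3 kept sulfotransferases lacked this difference. Sult2b1, which acts on cholesterol and related sterols, was 1.40-fold lower at CT14 in the Clock mutant. Sult5a1 was 1.53-fold lower, and both its Clock mutant readings (1228 and 805) were below both wild-type readings (2139 and 1386). Sult4a1, a gene best known from brain, read 997 and 717 in wild type and 874 and 875 on the Cry-labelled arrays, and was under the floor on both Clock mutant arrays. The female-biased Sult3a1 was under the floor on all 6 arrays of these male livers, as were Sult2a2 and Sult1c1.

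**Figure D4:**
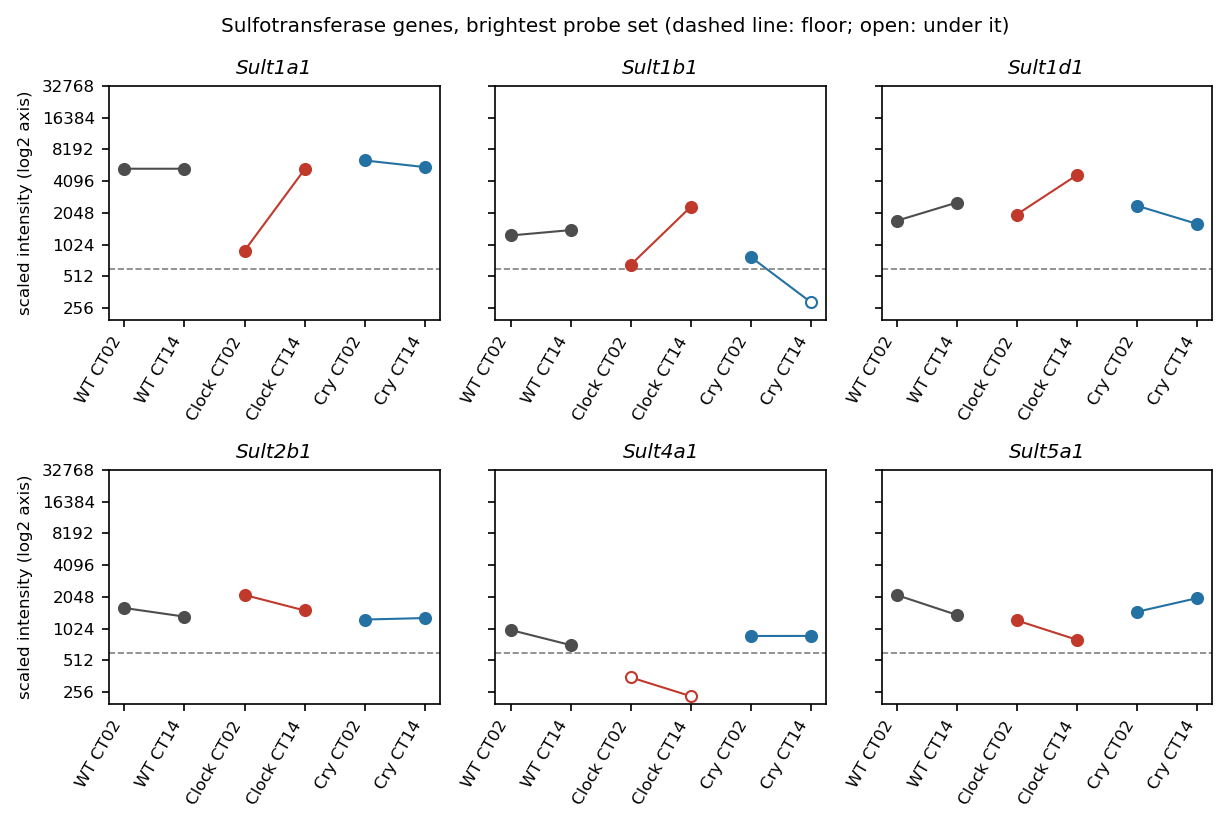
Scaled intensity (log2 axis) of the 6 kept sulfotransferase genes on each array, drawn as for the glutathione transferases, with open points for values under the floor of 606 (dashed line). Sult1a1 is low on the Clock mutant CT02 array alone (899), and Sult1b1 and Sult1d1 are highest on the Clock mutant CT14 array (2339 and 4679).

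Promoters of 5 of the genes 2-fold apart, picked after their values and motifs were seen, stand beside the values: those of the 3 sulfotransferases 2-fold apart in the Clock mutant time contrast, of Adh4, described further on, which with them had a motif match, and of Gstm2 as an example with none. They are from RefSeq's table (GRCm38.p6), run 5′ to 3′ on the gene's strand from 250 bases before to 50 bases after a transcript start, and capitals mark a match to one of 5 motifs on either strand. These were the E-box CACGTG, the D-box TTANGTAA that PAR bZIP factors bind, the ROR and REV-ERB element TAGGTCA, the antioxidant response core TGACNNNGC and the AHR element TGCGTG. Each motif was searched by itself, so a base could count for more than 1. Sult1b1 has a pair of starts in the table.
Sult1a1 promoter, chr7:126676369-126676668, minus strand: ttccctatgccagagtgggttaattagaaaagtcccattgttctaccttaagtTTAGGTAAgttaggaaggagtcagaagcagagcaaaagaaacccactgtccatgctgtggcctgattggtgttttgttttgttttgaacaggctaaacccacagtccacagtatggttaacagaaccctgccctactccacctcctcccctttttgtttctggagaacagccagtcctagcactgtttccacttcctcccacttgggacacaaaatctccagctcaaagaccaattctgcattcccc
Sult1b1 promoter of the upstream start, chr5:87538146-87538445, minus strand: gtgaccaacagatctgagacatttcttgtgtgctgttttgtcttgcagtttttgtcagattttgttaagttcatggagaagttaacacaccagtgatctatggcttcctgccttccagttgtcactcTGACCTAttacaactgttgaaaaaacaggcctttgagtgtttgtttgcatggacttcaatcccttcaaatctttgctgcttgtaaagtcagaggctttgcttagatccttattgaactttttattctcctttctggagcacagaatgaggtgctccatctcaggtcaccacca
Sult1b1 promoter of the downstream start, chr5:87536173-87536472, minus strand: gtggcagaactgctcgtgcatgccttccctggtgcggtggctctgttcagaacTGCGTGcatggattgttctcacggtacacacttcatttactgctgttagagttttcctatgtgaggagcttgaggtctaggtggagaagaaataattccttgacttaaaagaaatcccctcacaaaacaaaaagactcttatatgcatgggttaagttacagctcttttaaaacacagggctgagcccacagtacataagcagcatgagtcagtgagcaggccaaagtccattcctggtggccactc
Sult1d1 promoter, chr5:87568957-87569256, minus strand: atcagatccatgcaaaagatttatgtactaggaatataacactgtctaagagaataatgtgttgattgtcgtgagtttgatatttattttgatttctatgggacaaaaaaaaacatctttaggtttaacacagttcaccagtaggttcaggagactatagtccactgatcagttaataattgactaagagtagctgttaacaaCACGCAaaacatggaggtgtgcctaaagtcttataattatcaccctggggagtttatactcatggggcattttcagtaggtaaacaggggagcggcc
Gstm2 promoter, chr3:107986371-107986670, minus strand: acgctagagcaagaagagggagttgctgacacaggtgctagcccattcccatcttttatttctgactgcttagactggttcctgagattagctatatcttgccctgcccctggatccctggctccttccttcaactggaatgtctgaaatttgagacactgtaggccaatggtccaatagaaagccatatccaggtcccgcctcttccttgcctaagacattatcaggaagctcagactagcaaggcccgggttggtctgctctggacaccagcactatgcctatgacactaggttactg
Adh4 promoter, chr3:138415247-138415546, plus strand: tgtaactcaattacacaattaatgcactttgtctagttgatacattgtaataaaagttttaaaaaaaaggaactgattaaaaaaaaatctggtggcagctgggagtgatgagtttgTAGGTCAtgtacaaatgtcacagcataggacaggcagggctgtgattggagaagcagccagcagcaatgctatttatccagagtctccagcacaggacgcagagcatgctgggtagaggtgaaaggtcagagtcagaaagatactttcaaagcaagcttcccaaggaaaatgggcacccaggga
In these windows Sult1a1 held a D-box whose first base lay 197 bases before the start, Sult1b1 a ROR and REV-ERB element 123 bases before its upstream start and an AHR element 197 bases before its downstream start, and Sult1d1 an AHR element 47 bases before the start. Adh4 held a ROR and REV-ERB element 134 bases before the start. Gstm2 held none of the 5, nor did the listed promoters of Gsta2, Gstm1, Gstm6 and Mgst3. The table matched 47 of the 58 members by symbol, with 46 promoters of 37 kept members.

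Each motif was rare among the members. A D-box was in 3 of the 46 promoters (6.52%), those of Ces1c, Ces1g and Sult1a1, beside 2.32% of all 32851 promoters of the table. An E-box was in 2 (4.35%, beside 7.15%), of Adh1 and Aldh3a2, and a ROR and REV-ERB element in 2 (4.35%, beside 2.61%), of Adh4 and Sult1b1. The antioxidant response core was in 4 (8.70%, beside 12.4%), of Aldh9a1, Gsta3, Gstm5 and Mgst1. The AHR element was in 4 (8.70%, beside 8.47%), of Adh5, Akr7a5, Sult1b1 and Sult1d1. A match describes letters in a window and is not a binding site, and the promoter of Gsta4 was not analysed here.

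Among alcohol and aldehyde dehydrogenases Adh4 alone had a 2-fold difference in a comparison, and Adh1 and Aldh1a7 spanned 1.90-fold and 1.88-fold over the 6 arrays. Adh4, a class II enzyme that oxidises retinol and larger alcohols, read 7668 and 4918 in wild-type liver, 10881 and 9854 in Clock mutant liver and 6012 and 4674 in Cry-labelled liver. Both Clock mutant arrays were above the other 4. Over wild type, Clock mutant liver was 1.42-fold higher at CT02 and 2.0-fold higher at CT14, at the edge of the 2-fold limit. On its second probe set (4653 and 2495 in wild-type, 6852 and 7645 in Clock mutant, 2937 and 1889 in Cry-labelled liver) the difference at CT14 was 3.06-fold. Adh1, the main ethanol-oxidising gene, was between 10141 and 12747 on 5 arrays and at 19315 on the Clock mutant CT02 array. Adh5, the glutathione-dependent formaldehyde dehydrogenase gene, spanned 1.26-fold and Adh7 1.22-fold. Among aldehyde dehydrogenases, Aldh1a7 was 1.52-fold and 1.35-fold higher in the Clock mutant than in wild type, and its neighbour Aldh1a1, which makes retinoic acid, was 1.29-fold higher at CT02 and 1.08-fold lower at CT14. Aldh2, the mitochondrial enzyme that clears acetaldehyde, lay between 24185 and 32978, and Aldh3a2, Aldh7a1 and Aldh9a1 spanned at most 1.5-fold. All 6 kept aldehyde dehydrogenases were lower at CT14 than at CT02 in the Clock mutant, with a median log2 ratio of -0.36, and 5 of 6 were in wild type, with a median of -0.04. The brightest 10% of all genes, among which all 6 lie, had a median of -0.29 in that Clock mutant contrast.

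Aldo-keto reductases, glucuronosyltransferases, monooxygenases and carboxylesterases had no 2-fold difference in any comparison. Many of them also have close copies beside them in the genome, so a probe set can read more than 1 gene. Akr1c6, a steroid dehydrogenase gene of liver, was 1.61-fold lower at CT14 than at CT02 in the Clock mutant, and Akr1c13, of the same gene cluster, was 1.62-fold higher. Akr1a1 and Akr7a5 spanned 1.29-fold and 1.39-fold. Akr1e1 was not kept, and its readings of 786, 807, 830 and 650 on the wild-type and Cry-labelled arrays stood above the floor while both Clock mutant readings were below 0. Ugt2b34 and Ugt2b5, which lie in 1 row of 13 family genes with Sult1b1 and Sult1d1, spanned 1.24-fold and 1.47-fold. Fmo1, which oxidises nitrogen and sulfur of drugs, read 9996 and 12020 in wild-type liver, 11984 and 11052 in Clock mutant liver and 17450 and 17218 in Cry-labelled liver. Both Cry-labelled readings were above all others, by 1.75-fold and 1.43-fold over wild type at CT02 and CT14. Fmo5 was 1.14-fold and 1.38-fold lower there. Ces1g, a lipid-handling carboxylesterase gene, read 6582 and 6801 in wild-type liver, 3297 and 5375 in Clock mutant liver and 7776 and 4944 in Cry-labelled liver. Its difference from wild type in Clock mutant liver at CT02 was just short of the 2-fold limit. Ces2g was 1.67-fold and 1.22-fold higher in the Clock mutant than in wild type, and Ces1c, Ces1d and Ces3a spanned at most 1.77-fold.

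The time contrast in wild type set the start of the subjective night against the start of the subjective day. The 45 members had a median log2 ratio of 0.00, as did all genes kept, with 22 higher and 23 lower at CT14. None was 2-fold higher and 2 were 2-fold lower (4.44%), Gsta2 and Mgst3, where 4.56% of all genes kept were 2-fold apart, 2.48% higher and 2.09% lower. In the Clock mutant 7.74% of all genes kept were 2-fold apart in time. Of the members 5 were higher at CT14 (11.1%, beside 4.31% of all genes kept), Gstt2, Mgst3, Sult1a1, Sult1b1 and Sult1d1, and 1 was lower (2.22%, beside 3.43%), Gstm1. These 6 became 10 of 45 on the values as deposited and 10 of 53 with the floor at the 25th percentile, where 14.6% and 20.5% of all genes were 2-fold apart. The members' median was -0.27, close to the -0.29 of the brightest 10% of all genes. The 22 members outside that bright share had a median of 0.10. On the Cry-labelled arrays the single 2-fold difference was the lower Gstm6 at CT14 (2.22%), where 5.55% of all genes kept were 2-fold apart, 3.53% higher and 2.02% lower. It was 1 of 5 of 53 members with the lower floor (17.1% of all genes). Of the 45, 33 were lower, with a median of -0.13 beside -0.16 for the brightest 10%. Mgst3 alone was 2-fold apart in opposite directions in 2 genotypes, 1 of 45 members (2.22%) where 0.454% of all genes kept were between wild type and Clock mutant. No member was between wild type and the Cry-labelled arrays (0.31% of all genes) or between the Clock mutant and the Cry-labelled arrays (0.475%). The Clock mutant ratio of Mgst3 was 2.01-fold, at the edge of the limit, from a reading of 850 at CT02. With the mean of probe sets its differences were under 2-fold.

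Each mutant was compared with the same wild-type arrays, so their values are given side by side. In the Clock mutant at CT02 none of the members was 2-fold higher and 3 were 2-fold lower (6.67%), Gsta2, Mgst3 and Sult1a1, where 11.8% of all genes kept were 2-fold apart, 4.25% higher and 7.51% lower. With quantile normalization the split was 1 higher, Gstm2, and 3 lower. The 3 became 6 of 45 as deposited and 10 of 53 with the lower floor (21.2% and 26.9% of all genes). At CT14, where 9.76% of all genes kept were 2-fold apart, 4 members were higher (8.89%, beside 4.13%), Gsta4, Gstm2, Gstm6 and Adh4, and 1 lower (2.22%, beside 5.64%), Gstm1. With the lower floor these 5 became 13 of 53 (22.8% of all genes). On the Cry-labelled CT02 array, beside 6.69% of all genes kept, 3 members were higher (6.67%, beside 2.73%), Gsta2, Gsta4 and Gstt2, and 2 lower (4.44%, beside 3.96%), Gstm2 and Gstm6. Quantile normalization gave 3 higher and 1 lower there. At CT14, beside 4.73% of all genes kept, 3 were higher (6.67%, beside 2.46%), Gsta2, Gsta4 and Mgst3, and 2 lower (4.44%, beside 2.27%), Gstm6 and Sult1b1. These 5 became 8 of 53 with the lower floor (15.4% of all genes). No member was 2-fold higher or lower at both times in the Clock mutant, where 1.16% and 1.86% of all genes kept were. Each count is of at most 5 genes, so a share above that of all genes rests on few of them. The medians of the members against wild type were 0.24 and 0.04 in Clock mutant liver, and 0.15 and -0.03 in Cry-labelled liver (log2). The brightest 10% of all genes had 0.23, -0.06, 0.11 and -0.03, within 0.10 of the members in each.

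**Figure D5:**
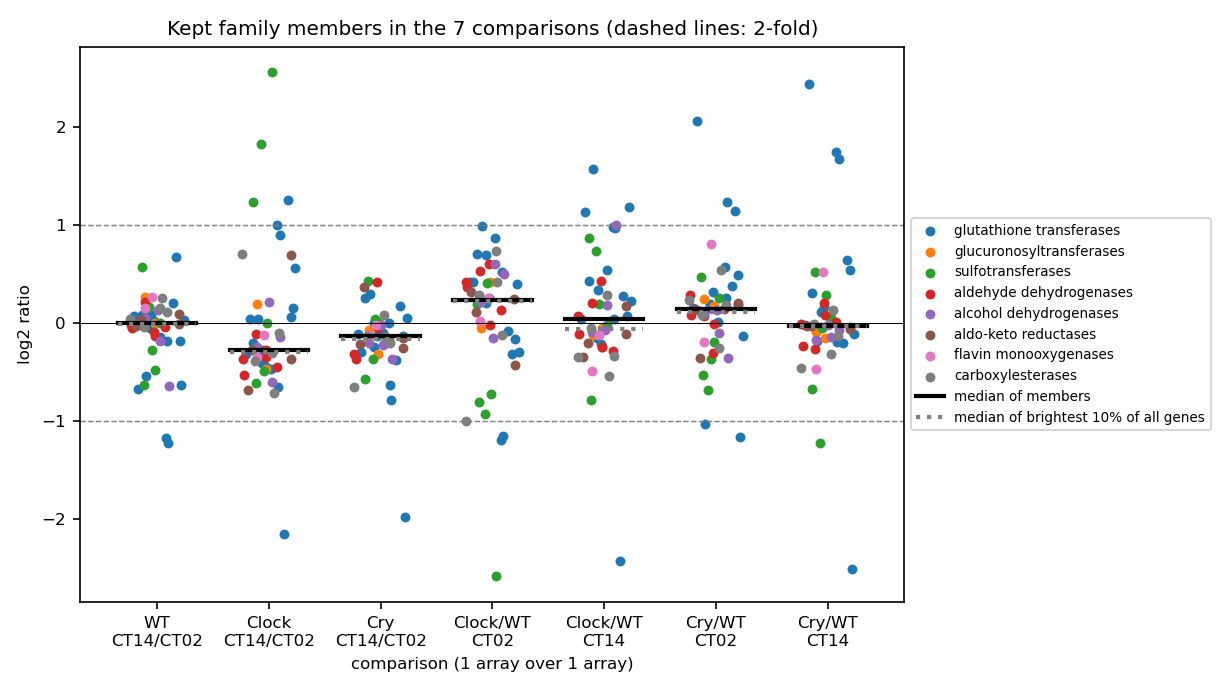
Log2 ratio of 1 array over another for each of the 45 kept members (points, coloured by enzyme family and spread sideways for clarity) in the 7 comparisons, with a black bar at the members' median, a dotted grey bar at the median of the brightest 10% of all genes and dashed lines at 2-fold. The bars lie close together in every comparison, and the points past 2-fold are glutathione transferases, sulfotransferases and Adh4.

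Both Clock mutant arrays were above both wild-type arrays for 13 of 45 members (28.9%), beside 23.6% of all genes kept, and below both for 6 (13.3%, beside 24.6%). The first count held the glutathione transferases Gsta4, Gstk1, Gstm2, Gstm3, Gstm5, Gstm6 and Mgst1, with Adh1, Adh4, Aldh1a7, Aldh2, Aldh9a1 and Ces2g. It was 14 with quantile normalization and 6 on the values as deposited. The second was Ces1c, Ces1g, Gstm1, Sult1a1, Sult4a1 and Sult5a1, and it was 12 with quantile normalization and 21 on the values as deposited. Both Cry-labelled arrays were above both wild-type arrays for 11 members (24.4%, beside 18.2%): Gsta2, Gsta3, Gsta4, Gstm3, Gstm5, Gstt1, Gstt2, Mgst3, Fmo1, Ces1d and Sult1a1. They were below both for 7 (15.6%, beside 20.2%): Gstm2, Gstm6, Gsto1, Sult1b1, Sult2b1, Fmo5 and Ces2g. Both Clock mutant arrays were above both Cry-labelled arrays for 11 members (24.4%, beside 25.9%) and below both for 13 (28.9%, beside 26.4%). The share below both wild-type arrays in the Clock mutant was the one farthest from that of all genes, and with quantile normalization it came to 12 of 45 beside 24.2% of all genes. Gstm3 and Gstm5 were in the counts above wild type of both mutants. Their family probe sets may bind the same transcripts, so they may not count as separate members.

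Other genes of the pathway were read from lists of cofactor supply, regulators and exporters. None of the 4 kept genes of glutathione supply was 2-fold apart in any comparison. Gclc, which encodes the rate-limiting subunit of glutathione synthesis, read 10762 and 5723 in wild-type liver, 11396 and 10138 in Clock mutant liver and 7880 and 7843 in Cry-labelled liver. Of the 5 genes that supply sulfate or glucuronic acid donors none was 2-fold apart. Papss2, which makes the sulfate donor PAPS, read 7323 and 6537 in wild-type liver, 5200 and 6637 in Clock mutant liver and 14096 and 12201 in Cry-labelled liver, 1.92-fold and 1.87-fold above wild type. Of 7 kept targets of the oxidant-sensing factor NRF2 outside the families, 1 was 2-fold apart, the pentose phosphate enzyme gene Pgd, 2.29-fold higher in the Clock mutant and 2.12-fold higher on the Cry-labelled array at CT14. Nqo1, a defining NRF2 target, was under the floor on all 6 arrays. Of the 4 kept exporters of conjugates, Abcc2, the canalicular pump, was 2.80-fold and 2.97-fold lower in the Clock mutant than in wild type at CT02 and CT14.

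Regulators known to act on these families differed between arrays in part. Of 7 kept receptors and partners, the constitutive androstane receptor gene Nr1i3 stayed between 10584 and 15251. Hnf4a, a hepatocyte transcription factor gene, read 4042 and 6563 in wild-type liver, 4086 and 5827 in Clock mutant liver and 871 and 4154 in Cry-labelled liver. It was 4.64-fold lower than wild type on the Cry-labelled CT02 array and 1.58-fold lower at CT14. The Actb and Gapdh control ratios of that CT02 array were 1.70 and 2.37, and their part in the low reading was not tested. Of 9 kept PAR bZIP and clock genes, 4 were 2-fold higher than wild type on the Cry-labelled CT02 array (Dbp, Tef, Per2 and Nr1d2). Clock alone was 2-fold lower there. Of all genes kept, 2.73% were higher and 3.96% lower. At CT14 2 were higher (Dbp and Nr1d2), beside 2.46% of all genes kept. Nr1d2, the gene of the repressor REV-ERB beta, was 3.17-fold and 2.59-fold higher at CT02 and CT14. In the Clock mutant Nr1d1 was 2.18-fold lower than wild type at CT02 and Per2 5.22-fold lower at CT14. None of the 9 was 2-fold higher in the Clock mutant. Of the PAR bZIP genes, Dbp read 1836 and 2259 on the Cry-labelled arrays and was under the floor on both Clock mutant arrays. The Cry-labelled reading was 3.01-fold above wild type at CT14 and at least 3.03-fold above it at CT02. Tef was 3.02-fold higher than wild type on the Cry-labelled CT02 array and 1.07-fold at CT14. On the Cry-labelled CT02 array the summed level of the 10 measured macrophage markers was 48455, against 27698 to 38336 on the others. Against wild type, Marco and Tyrobp were at least 2-fold higher there and C1qa was 3.17-fold lower. The part of these markers in the results was not tested. Cytochrome P450 genes, whose enzymes act before conjugation, had 13 of 32 kept genes 2-fold apart in at least 1 comparison (40.6%). Beside this stood the members' 11 of 45 and 27.3% of all genes kept, with no test of the difference. Fewer of the P450 genes lay in the brightest 10% of genes, 13 of 32 against 23 of 45 members. Outside it 57.9% of P450 genes, 50% of members and 29.9% of all genes were 2-fold apart. Within it 2 of 13 P450 genes and 0 of 23 members were.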

How the data were processed

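As deposited by the authors, the values are intensities, 1 for each of 12488 probe sets (66 of them controls) on an array. They are whole numbers above and below 0, and array means differ. They were made with software not given in the sources used here. Arrays were brought to 1 scale with a factor each, the median of array value over geometric mean, taken on 6065 probe sets that were positive on all 6 arrays and in the brighter part by mean. Values below the pooled median (606) were set to it before log2, so a fold against a floored value is a lower bound. Probe sets with several symbols (396) or none (1193) were left out, and symbols were matched to RefSeq by gene number (10817 of 10833, with 0 updated). A gene was its brightest probe set, kept if its mean reached the floor (4844 of 8251).

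No test was made. The procedure was run on simulated data with changes set only in genes well above the floor. That run does not cover dim members or probe sets that read several genes. Python 3.11.15, pandas 2.3.3, numpy 2.4.6 and statsmodels 0.14.6 were used. Genes 2-fold apart in any of the 7 comparisons were named, with levels for those apart in 2 or more and for Gsta4, Gstm6 and Sult1a1. Other members named as examples, and counts of arrays that do not overlap, were chosen after values were seen. Members and lists were chosen with earlier results of these data known. The alternatives were values as deposited, quantile normalization, lowess with span 0.3, the floor moved to the 25th percentile, all genes unfiltered, the mean of probe sets, probe sets without a letter in their names, a 3-fold limit, and scaling without the Clock mutant CT02 or the Cry-labelled CT02 array.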

Additional observations from a re-analysis of the deposited data

Results flagged for a closer look

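Of the members, 3 had time differences of at least 1.5-fold that ran opposite ways in a pair of genotypes, with 1 array per group and no test of the difference. For Gsta2 the log2 ratio of CT14 over CT02 was -1.22 in wild type and -0.78 on the Cry-labelled arrays against 0.90 in the Clock mutant. For Mgst3 it was -1.17 in wild type against 1.0 in the Clock mutant, on readings of 850 to 1940. For Ces1g it was 0.71 in the Clock mutant against -0.65 on the Cry-labelled arrays. These Clock mutant ratios share the CT02 array with the lowest mean intensity, 1637.

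A probe set annotated with 8 glucuronosyltransferase symbols was left out of the families because it names no single gene. It read 13513 and 13248 in wild-type liver, 22761 and 10775 in Clock mutant liver and 14279 and 11678 in Cry-labelled liver. It was higher than wild type on the Clock mutant CT02 array, with a log2 ratio of 0.75, and 2.11-fold lower at CT14 than at CT02 in that genotype. Neither kept glucuronosyltransferase gene with a single symbol had a difference of that size.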

How the results depend on the processing

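Of 27 gene differences of at least 2-fold, 20 kept that size under every alternative other than the 3-fold limit that gave a value, and 0 changed direction. The 10 that also passed 3-fold were those of Gsta4 on both Cry-labelled arrays, Gsta2 on the Cry-labelled CT14 array, Gstm6 at CT14 on the Cry-labelled arrays in both comparisons, Gstm1 at CT14 in the Clock mutant in both, Sult1a1 at CT02 in the Clock mutant in both, and Sult1b1 in the Clock mutant time contrast. With the mean of probe sets, the 4 Mgst3 differences and both of Gstm2 were under 2-fold. No paired analysis was possible because each group has 1 array and the labels give no replicate number. Without scaling, the median of all genes lay at 0.45 for time in the Clock mutant, 0.20 for time on the Cry-labelled arrays, -0.52 for the Clock mutant at CT02 and -0.11 for the Cry-labelled array at CT02, and the share of called genes that were higher was 93.1%, 81.9%, 5.62% and 28.6% in these, against 55.7%, 63.6%, 36.1% and 40.7%.

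The count of members 2-fold apart was 2 for time in wild type, 1 with the mean of probe sets and 0 at 3-fold. For time in the Clock mutant it was 6, 10 as deposited, 10 with the lower floor (which keeps 53 members) and 3 at 3-fold. For time on the Cry-labelled arrays it was 1, 5 with the lower floor and 2 with no filter. For the Clock mutant over wild type it was 3 at CT02, 6 as deposited, 10 with the lower floor and 1 at 3-fold, and 5 at CT14, 13 with the lower floor and 1 at 3-fold. For the Cry-labelled arrays it was 5 at CT02, 1 at 3-fold, and 5 at CT14, 8 with the lower floor. The members' median less that of all genes was -0.27 for time in the Clock mutant, 0.00 with quantile normalization, -0.00 with lowess, -0.12 with no filter and -0.11 on probe sets without a letter. For time on the Cry-labelled arrays it was -0.13, -0.01 with quantile normalization and -0.02 with lowess. For the Clock mutant at CT02 it was 0.24, -0.01 with quantile normalization, -0.02 with lowess and 0.12 with no filter. For the Cry-labelled array at CT02 it was 0.15, 0.04 with quantile normalization and 0.03 with lowess. Quantile and lowess correction remove shifts that depend on brightness, by their construction. The cause of the other differences was not tested. For dim genes the limit is signal over background, with 4.75% to 8.05% of the kept genes at the floor, depending on the array.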
